A study of Mus musculus with 11 samples.

Results

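Nuclear genes for the subunits of oxidative phosphorylation were followed through the cell types of the mouse cerebrovascular preparation. The members were taken by symbol: Nduf genes of the a, b, c, s and v series, Sdha to Sdhd, Uqcr genes, Cox genes of subunits 4 to 8 and Atp5 genes, with Ndufa4l2, Cox4i2 and pseudogene names left out. This gave 82 of the 32287 genes listed, with 35 in complex I, 4 in complex II, 8 in complex III, 18 in complex IV (Ndufa4 is placed here) and 17 in complex V. All 82 had at least 1 unique molecular identifier (UMI, a tag that counts 1 captured RNA molecule), and their UMIs made up 1.227% of those from nuclear genes in the clustered cells. The rule itself uses symbols and no expression value.

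Single-cell RNA sequencing covered 6 mice of the R182C-TgN3 genotype and 5 of the WT-TgN3 genotype, with brain cells isolated with antibodies to the endothelial surface protein CD31, and 1 library was made from each mouse. R182C-TgN3 mice model CADASIL, a hereditary small vessel disease caused by NOTCH3 variants. A transgene for human NOTCH3 was present in every mouse, bearing R182C in the first group and the wild-type sequence in the second, so neither group lacks it. The mice were 6 months old (R182C-TgN3 4, 5 and 6 and WT-TgN3 1, 2 and 3) or 9 months old (R182C-TgN3 1, 2 and 3 and WT-TgN3 4 and 5), of both sexes, and were prepared in 4 batches.

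The libraries held 66658 barcodes and 17550806 to 64215050 UMIs each. The cells fell into types named from marker genes: 14868 capillary, 5261 arterial, 5180 venous and 1714 fenestrated endothelial cells (EC), 2079 smooth muscle cells (SMC), 636 pericytes (PC), 12020 microglia, 238 choroid plexus cells and 206 ependymal cells. The own marker list made up 3.451% to 4.419% of UMIs in SMC, 1.495% to 3.081% in PC, 1.929% to 2.758% in microglia and 15.8% to 31.4% in choroid plexus. Ependyma passed the limit of 10 cells in 2 mice only. Its marker list made up 1.156% of UMIs in WT-TgN3 4 but 0.277% in R182C-TgN3 4, near the 0.2572% in capillary EC of that mouse. Of the list, Pltp was higher in capillary EC (2378 to 3071 UMIs per 1000000) than in ependyma (947.2 and 1210.4), while Ccdc153, Tmem212 and Foxj1 were lower there. Ccdc153 stood at 1482 UMIs per 1000000 UMIs from nuclear genes (CPM, the unit of level used throughout) in the 10 cells of WT-TgN3 4, at 182.7 in the 185 cells of R182C-TgN3 4, and at or near 0 in capillary EC. The ependymal cells of R182C-TgN3 4 also held 0.7085% endothelial marker RNA, against a median of 1.952% in capillary EC itself, 0.4818% SMC and 0.0702% PC marker RNA, against 0.0704%, 0.0107% and 0.002058% in WT-TgN3 4. Of the barcode sequences, 966 occurred in more than 1 library and these were left out.

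Oxidative phosphorylation is the last stage of aerobic energy production. Complexes I and II feed electrons from NADH and succinate into the inner mitochondrial membrane, complex III passes them to cytochrome c, and complex IV, cytochrome c oxidase, hands them to oxygen. Complexes I, III and IV pump protons, and complex V, the ATP synthase, uses the gradient to make ATP. Most subunits are encoded in the nucleus and imported, while mitochondrial DNA encodes membrane subunits of complexes I and V, cytochrome b of complex III and the catalytic core of complex IV. Several complex IV subunits exist as a general form and a form of particular tissues. Choroid plexus epithelium secretes cerebrospinal fluid against an ion gradient and is known to be rich in mitochondria.

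Upstream sequences are shown for complex IV genes because the largest differences of choroid plexus were in this complex. Cox8b, Cox6b2 and Cox7a1 are tissue forms that were higher in choroid plexus than in capillary EC, and Cox8a and Cox6a1 are general forms. The 250 bases before the RefSeq start on GRCm38.p6 are given on the strand of the gene, for Cox8b at chr7:140900447-140900696 (minus strand), Cox8a at chr19:7217617-7217866 (minus), Cox6b2 at chr7:4753095-4753344 (minus), Cox7a1 at chr7:30183921-30184170 (plus) and Cox6a1 at chr5:115348959-115349208 (minus). Capitals mark letters that match GCGCATGC, the core of the NRF1 motif, or CCGGAAG, the ETS motif bound by GABPA, on either strand.
Cox8b: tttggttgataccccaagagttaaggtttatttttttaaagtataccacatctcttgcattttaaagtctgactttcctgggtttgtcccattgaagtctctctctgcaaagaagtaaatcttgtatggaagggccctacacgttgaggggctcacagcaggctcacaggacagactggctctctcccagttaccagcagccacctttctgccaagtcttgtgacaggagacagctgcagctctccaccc
Cox8a: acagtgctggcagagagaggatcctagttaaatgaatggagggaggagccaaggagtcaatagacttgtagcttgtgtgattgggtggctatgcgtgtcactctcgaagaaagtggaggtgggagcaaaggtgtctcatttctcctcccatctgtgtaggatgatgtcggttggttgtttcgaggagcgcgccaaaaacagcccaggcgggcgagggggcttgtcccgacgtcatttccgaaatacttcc
Cox6b2: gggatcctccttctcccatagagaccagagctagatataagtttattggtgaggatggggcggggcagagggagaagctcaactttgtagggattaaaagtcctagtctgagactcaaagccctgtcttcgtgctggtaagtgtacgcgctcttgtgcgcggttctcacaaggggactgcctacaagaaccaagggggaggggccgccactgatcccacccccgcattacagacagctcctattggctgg
Cox7a1: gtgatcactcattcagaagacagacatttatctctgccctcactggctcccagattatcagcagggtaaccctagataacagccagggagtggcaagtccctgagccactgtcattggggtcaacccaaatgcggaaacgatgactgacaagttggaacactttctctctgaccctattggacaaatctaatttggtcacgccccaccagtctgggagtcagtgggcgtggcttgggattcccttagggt
Cox6a1: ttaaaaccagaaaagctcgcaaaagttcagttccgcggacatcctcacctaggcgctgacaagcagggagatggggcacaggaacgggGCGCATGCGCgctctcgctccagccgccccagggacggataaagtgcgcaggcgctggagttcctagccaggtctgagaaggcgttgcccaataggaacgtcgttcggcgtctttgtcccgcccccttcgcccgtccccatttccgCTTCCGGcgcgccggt
NRF1 and GABPA are transcription factors known to act on many genes of this pathway. In Cox6a1 the NRF1 letters lay on both strands of an overlapping stretch, beginning 162 bases before the start on the plus strand and 160 on the minus strand, and the ETS letters at 16 bases before it. Neither motif, nor AAGATGGC, the letters of the YY1 motif, was found in the 250 bases of Cox8b, Cox6b2 or Cox7a1, nor in those of the general forms Cox8a and Cox7a2, while Cox6b1 held CCGGAAG. Absence says only that these letters are not there. With 50 bases after the start added, Cox8a also held CCGGAAG. Cox8b, Cox6b2, Cox7a1 and Cox7a2 still held none of these motifs. Across windows of 250 bases before and 50 after the start, a promoter was matched for 68 of the 82 members, 1 of them (Atp5f1) through its newer symbol. GCGCATGC was present in 10 of the 68 (14.71%) and in 3.049% of 27025 genes, CCGGAAG in 17 (25%) and 9.928%, and AAGATGGC in 10 (14.71%) and 3.19%, both strands searched. A match is a description of the letters and not a bound site.

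**Figure D1:**
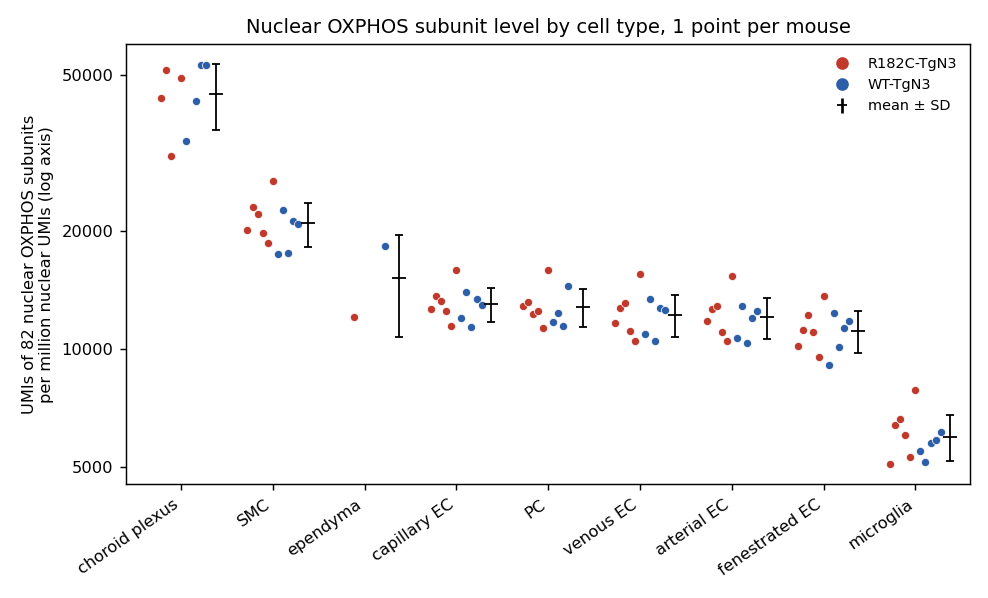
Summed level of the 82 genes in CPM (vertical log axis) in each cell type, with 1 point per mouse coloured by genotype and the mean ± SD in black (2 mice in ependyma). Choroid plexus lies between 31069 and 53222, above all SMC values (17473 to 26769), and microglia lie lowest, between 5068 and 7867.

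The summed level of the 82 genes, in CPM, differed widely among the types and followed nearly the same order in each mouse. It was highest in choroid plexus, at 44815 ± 8566 (SD, n = 8 mice), and next in SMC, at 20916 ± 2700 (n = 11). Capillary EC had 12985 ± 1278 (n = 11), PC 12782 ± 1429 (n = 10), venous EC 12232 ± 1520, arterial EC 12037 ± 1452 and fenestrated EC 11123 ± 1358 (each n = 11). Microglia were lowest, at 5966 ± 804.1 (n = 11). Relative to capillary EC of the same mouse, the level was 3.423 ± 0.5987 times in choroid plexus, 1.607 ± 0.06534 in SMC and 0.4597 ± 0.04229 in microglia. A UMI tags 1 transcript end, so these levels need no scaling by gene length, but they are shares of a cell's RNA and not amounts per cell.

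The neighbours in this order were not all separable. Choroid plexus exceeded SMC in 8 of 8 mice, SMC exceeded ependyma in 2 of 2, arterial EC exceeded fenestrated EC in 11 of 11 and fenestrated EC exceeded microglia in 11 of 11. Venous EC exceeded arterial EC in 10 of 11 mice by a mean of 195.7 ± 240.5. Capillary EC exceeded PC in 6 of 10 mice, with a mean difference of 210.9 ± 713.3, and PC exceeded venous EC in 8 of 10, so PC could not be placed among the EC types. Ependyma, with 12037 in R182C-TgN3 4 and 18283 in WT-TgN3 4, lay below capillary EC of the same mouse in the first and above it in the second. Of the 82 genes, 75 had their highest mean level in choroid plexus and 73 their lowest in microglia, with ependyma and the types not compared left aside.

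In capillary EC the highest single member was Atp5j, a coupling subunit of the ATP synthase stalk, at 439.5 ± 45.18 CPM. Ndufa4, Ndufa7, Cox4i1 and Cox6c followed, at 429.8, 413.5, 397.9 and 391.7. In all, 59 members exceeded 100 CPM and 5 were under 1, namely Cox7b2, Cox8c, Cox6a2, Cox8b and Cox6b2, all forms of complex IV subunits with restricted tissues. Cox7b2 and Cox8c were too low in every type to pass the filter on counts, which left 80 members in the tests between cell types. Ndufs1, the iron-sulfur subunit of the complex I arm that receives electrons, had 36.31 ± 4.233 and was among the lowest of the general subunits.

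**Figure D2:**
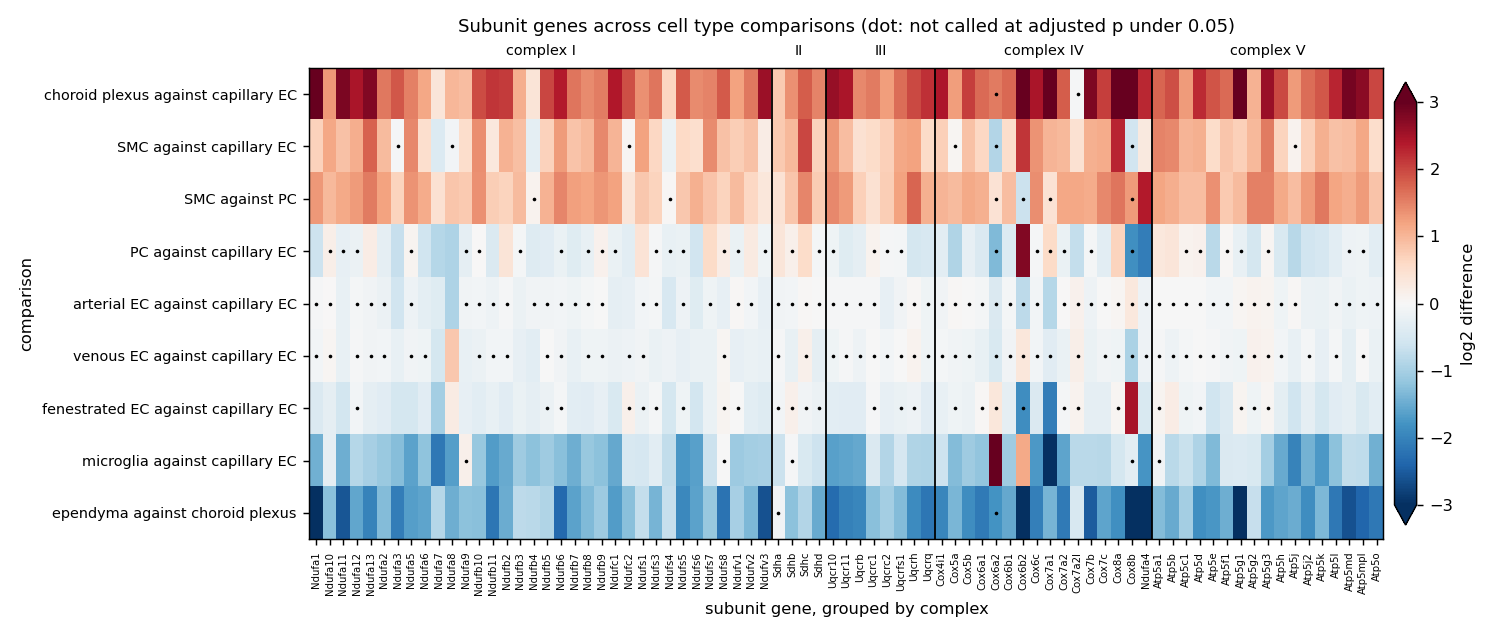
Log2 difference of 79 of the 80 subunit genes tested (columns, grouped by complex) in 9 comparisons of cell types (rows), with red for higher in the first type, blue for lower, colours ending at 3 in either direction and a dot where the gene was not called. The choroid plexus and SMC rows are red across complexes, the microglia row is mostly blue with Cox6a2 and Cox6b2 in red, and the direction of the pale PC row against capillary EC turns with the scaling of the libraries.

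Cell types were compared gene by gene on UMIs summed per mouse and type, in a single edgeR fit over 14928 genes with mouse as a block, and a gene was called at a Benjamini-Hochberg adjusted p under 0.05. Log2 differences are given with their standard error. In choroid plexus, 78 of 80 members were higher than in capillary EC, 73 of them at least 2-fold, and 0 were lower. Over all genes, 31.9% were called higher, 32.9% lower and 22.5% at least 2-fold higher. The member median was 1.83 on the log2 scale and the median of all genes -0.11. Other scalings moved the median of all genes between -0.46 and 0.33, and the member median stayed 1.82 to 1.99 above it.

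Complex IV had the highest ratio in choroid plexus, in a description without a test between complexes. Its summed level was 4.082 ± 0.8023 times that of capillary EC, with 3.542 ± 0.582 for complex V, 3.528 ± 0.6571 for complex III, 2.888 ± 0.4831 for complex I and 2.018 ± 0.2582 for complex II (n = 8). Complex II, the succinate dehydrogenase that also serves the citric acid cycle, thus made up 1.191% of member UMIs there, against 1.994% in capillary EC and 3.175% in microglia. The catalytic flavoprotein Sdha differed by 0.78 ± 0.08 and the iron-sulfur Sdhb by 1.38 ± 0.096. By comparison Cox4i1, the general form of subunit IV, differed by 2.42 ± 0.088, and Atp5b and Atp5a1, the beta and alpha subunits of the ATP synthase head, by 1.93 ± 0.078 and 1.75 ± 0.086. Among complex I genes Ndufv1, which binds NADH, differed by 1.20 ± 0.10, Ndufs1 by 1.36 ± 0.13 and the accessory Ndufb8 by 1.42 ± 0.092. In complex III the core protein Uqcrc2 differed by 1.26 ± 0.088 and the Rieske protein Uqcrfs1 by 1.69 ± 0.098. All of these had adjusted p-values of 3.119e-18 or below except Sdha, at 1.679e-16.

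The largest rise was in Cox8b, the heart and muscle form of subunit VIII, whose upstream sequence is given above and which lies at chr7:140898945-140900446 on the minus strand of mm10. It had 200.3 CPM in R182C-TgN3 2, 668.9 in R182C-TgN3 3, 105.2 in R182C-TgN3 4 and 240.5 in R182C-TgN3 6, and 55.1, 216.5, 320.8 and 224.1 in WT-TgN3 1, 3, 4 and 5. Capillary EC of all mice together held 10 Cox8b UMIs of 71556688 nuclear UMIs, so the groups did not overlap, and the fitted log2 difference was 10.70 ± 0.24 (adjusted p = 6.01e-61). Cox8b made up 8.813% ± 4.294 of Cox8a and Cox8b UMIs in choroid plexus and at most 0.1153% on average in the other types compared. Fibroblasts, outside these types, had means of 6.575 CPM for Cox8b and 581.9 for Cox8a. Cox8a, the general form, was also higher in choroid plexus, by 3.03 ± 0.092.

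Cox6b2 (chr7:4751792-4753094, minus strand), known as the testis form of subunit VIb, came second, with 8.30 ± 0.20 (adjusted p = 1.731e-70). Its level in choroid plexus ran from 127.2 in WT-TgN3 1 to 320.8 in WT-TgN3 4, against a mean of 0.7608 in capillary EC. It made up 22.18% ± 3.697 of Cox6b1 and Cox6b2 UMIs there, from 17.99% to 26.76%. In the other types compared it made up 0.1371% to 3.512% on average. Outside them, Cox6b2 and Cox6b1 had means of 38.71 and 277.6 CPM in fibroblasts and 9.748 and 184.8 in perivascular macrophages. Cox7a1, the heart and muscle form of subunit VIIa, differed by 3.72 ± 0.18 in choroid plexus. It made up 8.12% ± 1.233 of Cox7a1 and Cox7a2 UMIs there. Its share was 8.537% and 17.65% in the 2 ependymal samples, 4.495% on average in PC and 0.2977% to 2.465% in the other types compared. The general forms Cox6b1, Cox7a2 and Cox6a1 rose less in choroid plexus, by 1.73 ± 0.086, 1.82 ± 0.089 and 1.71 ± 0.093.

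The c ring of the ATP synthase is encoded by 3 nuclear genes for the same mature protein. Atp5g1 (chr11:96068852-96075670, minus strand) differed by 4.02 ± 0.096 in choroid plexus (adjusted p = 8.353e-75), from 928.1 CPM in R182C-TgN3 4 to 2076.0 in WT-TgN3 5, against a mean of 111.6 in capillary EC. Atp5g3 differed by 2.58 ± 0.086 and Atp5g2 by 1.05 ± 0.08. Atp5g1 therefore made up 62.87% ± 3.788 of the 3 genes in choroid plexus, against 20.64% to 29.63% on average in every other type. Atp5g2 was the main gene of the 3 in all of those other types. Ndufa4, a subunit of complex IV named for complex I, differed by 2.27 ± 0.11.

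Cox7a2l, which takes part in joining complexes into supercomplexes, and Cox6a2 were the 2 members not called in choroid plexus. Cox7a2l had 165.8 ± 45.61 CPM there and 202.9 ± 27.86 in capillary EC. Its log2 difference of -0.03 ± 0.096 changed sign with the scaling, to 0.27 with RLE factors and 0.26 in DESeq2.

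Choroid plexus cells of R182C-TgN3 4 and WT-TgN3 1 had the lowest member levels, 31069 and 33930, and held the most endothelial marker RNA, 0.6726% and 0.4145% against a median of 0.07205%. Their share of choroid plexus markers was also lowest, 15.8% and 16.8%. The part of carried-over RNA in those levels was not tested. Without these mice the counts were 78 higher and 0 lower of 79 members tested, and with the shared barcodes kept they were 77 and 1. Mitochondrial UMIs made up a median of 8.404% in choroid plexus, near the limit of 10% set per cell. With a limit of 20% the level was 44037.

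Ependyma, the ciliated lining of the ventricles beside the choroid plexus, was lower than choroid plexus for 78 of 80 members, 69 of them at least 2-fold, and higher for 0. Among all genes 19% were called higher, 11.1% lower and 8.43% at least 2-fold lower. The member median was -1.58 and that of all genes 0.21. Cox8b had 0 UMIs in both ependymal samples, where 3 UMIs over both together would make 4.553 CPM, so it was at least 55.8-fold lower than the choroid plexus mean of 253.9. Cox6b2 differed by -4.43 ± 0.50 and Atp5g1 by -3.43 ± 0.22. Sdha and Cox6a2 were not called. This comparison rests on 2 mice, and with a minimum of 20 cells or without either mouse it could not be fitted with 2 ependymal samples. The 185 cells of R182C-TgN3 4 had a median of 1814 UMIs each, and the 10 cells of WT-TgN3 4 had 21480. The former also carried the endothelial, SMC and PC marker RNA given above, whose part in these differences was not tested.

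SMC, the contractile cells of arteries and arterioles, had 70 of 80 members higher than capillary EC, 29 at least 2-fold, and 3 lower. Of all genes, 33% were called higher, 33% lower and 16.8% at least 2-fold higher, and the medians were 0.89 for members and -0.04 for all genes. The rise ran through all complexes, with 29 of 35 members higher in complex I, 4 of 4 in complex II, 8 of 8 in complex III, 13 of 16 in complex IV and 16 of 17 in complex V. The R182C-TgN3 6 library had the highest summed SMC level, 26769, and WT-TgN3 1 the lowest, 17473, and the ratio to capillary EC of the same mouse stayed between 1.459 and 1.688.

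Cox8a had the largest rise in SMC, 2.28 ± 0.084 (adjusted p = 7.858e-54). It ran from 1117.0 to 1728.7 CPM across 11 mice in SMC and from 265.6 to 414 in capillary EC, with no overlap. Sdhc, a membrane anchor of complex II, rose by 2.02 ± 0.078 (adjusted p = 1.299e-51), from between 38.47 and 54.98 in capillary EC to between 139.9 and 184.5 in SMC. Sdhc, Sdha and Cox7a2l were the 3 members whose mean was highest in SMC among the 8 types compared, with ependyma and blood cells left aside. Sdhc had 131.6 in choroid plexus. Sdha had 160.5 in ependyma against 152.2 in SMC, and Cox7a2l 339 in T or NK cells against 240.9. Cox6b2 rose by 2.14 ± 0.35 but stayed low, at 2.4 CPM with 49 UMIs in all SMC.

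The general subunits rose by less in SMC. Atp5a1 rose by 1.49 ± 0.076, Atp5b by 1.44 ± 0.07, Ndufs1 by 1.22 ± 0.092, Uqcrfs1 by 1.16 ± 0.077, Sdhb by 0.97 ± 0.075, Sdha by 0.79 ± 0.061 and Cox4i1 by 0.71 ± 0.079. Ndufa4 rose by only 0.30 ± 0.096. The 3 members that fell were accessory subunits of complex I, Ndufa7 by 0.41, Ndufb4 by 0.29 and Ndufs4 by 0.17 on the log2 scale (adjusted p = 1.067e-06, 0.0002564 and 0.03527). Kank3, an endothelial gene, lies 1654 bases upstream of Ndufa7 on the same strand and had 302 CPM in capillary EC, 5.725 in SMC and 4.303 in microglia. Its part in the Ndufa7 difference was not tested.

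PC sit on capillaries and share markers with SMC. Their members stood close to capillary EC, with 12 of 80 higher and 32 lower and a median of -0.20 against -0.14 for all genes, but with RLE factors the counts were 25 higher and 17 lower and the median 0.02, so the direction turned with the scaling. Of all genes, 19.2% were called higher and 26.2% lower, that is 42.28% of calls higher, which became 59.65% with RLE and 63.27% in DESeq2. Relative to the median of all genes, the member median lay between -0.15 and -0.05 under each of the 4 scalings. PC libraries also held a median of 0.454% endothelial marker RNA (0.2037% to 1.152%), whose part in this closeness was not tested.

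Single genes in PC departed much more than the sum. Ndufa4 differed from capillary EC by -2.08 ± 0.12 (adjusted p = 4.415e-33). It had 36.03 to 294.6 CPM in PC, where the highest value belonged to R182C-TgN3 6, whose PC held the most endothelial marker RNA (1.152%), and 346.7 to 524.5 in capillary EC, with no overlap. Ndufa8 differed by -0.92 ± 0.12 and Cox5a, an early assembling subunit of complex IV, by -0.89 ± 0.092. Higher were Cox6b2, by 2.78 ± 0.54 on 18 UMIs in all, and Cox8a, by 0.66 ± 0.087.

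The forms Ndufa4l2 and Cox4i2, left out of the sum by rule, made up most of the UMIs of their pairs in PC. Ndufa4l2, known as induced by low oxygen, made up 86.41% ± 7.468 of Ndufa4 and Ndufa4l2 UMIs in PC (n = 10) and 25.93% ± 2.68 in SMC (n = 11), and at most 0.3387% on average in EC types, choroid plexus and microglia. In PC the share was 94.43%, 96.75%, 89.54%, 85.4%, 84.85% and 70.12% in R182C-TgN3 1 to 6 and 84.17%, 84.62%, 91.72% and 82.47% in WT-TgN3 1 to 4. Cox4i2, the form of subunit IV first known from lung, made up 53.06% ± 4.86 of Cox4i1 and Cox4i2 in PC and 14.91% ± 3.698 in SMC, and at most 1.24% in EC types, choroid plexus and microglia. Against capillary EC the log2 difference of Ndufa4l2 was 9.19 in PC and 7.33 in SMC, and that of Cox4i2 6.96 and 5.33. In ependyma the share of Ndufa4l2 was 19.78% in R182C-TgN3 4, where SMC and PC markers made up 0.4818% and 0.0702% of UMIs, and 0 in WT-TgN3 4, where they made up 0.0107% and 0.002058%. The part of mural RNA in that share was not tested.

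**Figure D3:**
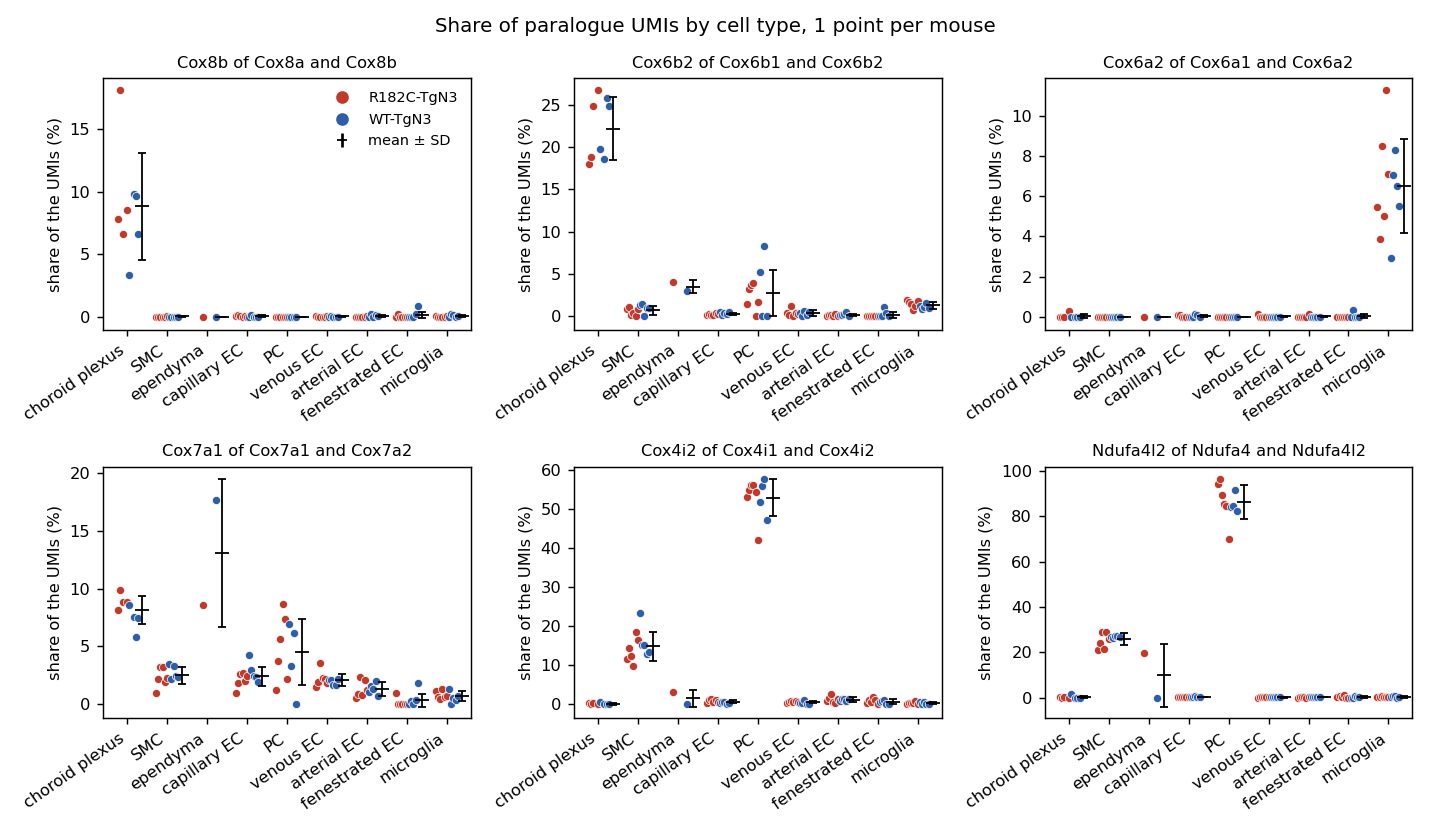
Share of UMIs (%, vertical axis) taken by 6 tissue forms of complex IV subunits among the named pair, by cell type, with 1 point per mouse and the mean ± SD in black. Among the types drawn, Cox8b and Cox6b2 stand out in choroid plexus and Cox6a2 in microglia. Cox4i2 and Ndufa4l2 stand out in PC and, at a lower share, in SMC.

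Set directly against PC, SMC had 74 of 80 members higher, 42 at least 2-fold, and 0 lower. Of all genes 24% were called higher, 20.9% lower and 11.4% at least 2-fold higher, and the medians were 1.06 and 0.01. Higher calls were 53.5% of all calls, and 38.1% with RLE, 35.46% in DESeq2 and 23.15% by library size alone, while the member median stayed 1.02 to 1.11 above that of all genes. Ndufa4 led with 2.38 ± 0.12 (adjusted p = 9.244e-38), followed by Uqcrh, the hinge protein of complex III, with 1.74 ± 0.091, and Cox8a with 1.62 ± 0.089. Uqcrh had 560.2 CPM in SMC and 224.1 in PC. Atp5a1 differed by 1.18 ± 0.089, Ndufb8 by 1.18 ± 0.10, Cox4i1 by 1.02 ± 0.089 and Sdha by 0.43 ± 0.08, and Sdha was -0.04 by library size alone.

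Microglia, the resident immune cells of brain, had 73 of 80 members lower than capillary EC, 43 at least 2-fold, and 2 higher. Among all genes 36.6% were called higher, 43.2% lower and 23.6% at least 2-fold lower, and the medians were -1.04 for members and -0.12 for all genes. Complex I fell in 33 of 35 members with a median of -1.14, complex III in 8 of 8, complex V in 16 of 17 and complex IV in 13 of 16. Complex II had the median nearest to 0, -0.54, with 3 of 4 members lower. Sdhb (64.5 CPM against 67.3) and Atp5a1 (167.5 against 185) were not called.

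The largest falls in microglia were Cox7a1, -3.20 ± 0.23, Ndufa7, -2.15 ± 0.079, and Atp5j, -2.01 ± 0.073. Ndufa7 ran from 79.5 to 132 CPM in microglia and from 343 to 494 in capillary EC. Ndufa4 differed by -1.76 ± 0.098, Cox7a2 by -1.58 ± 0.08, Ndufb8 by -1.15 ± 0.077, Ndufv1 by -1.09 ± 0.075, Uqcrc2 by -0.87 ± 0.069, Atp5b by -0.81 ± 0.069, Sdha by -0.64 ± 0.059 and Cox4i1 by -0.63 ± 0.079.

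Cox6a2 (chr7:128205435-128206387, minus strand), the heart and muscle form of subunit VIa, went the other way, with a log2 difference of 5.87 ± 0.40 (adjusted p = 2.582e-26). Its level was low, from 2.084 CPM in WT-TgN3 1 to 8.159 in R182C-TgN3 5 with 365 UMIs in all, but microglia of every mouse held it, while capillary EC held 4 UMIs and SMC and PC 0. It made up 6.506% ± 2.34 of Cox6a1 and Cox6a2 UMIs in microglia. Among immune cells outside the types compared, the mean of Cox6a2 was 16.72 CPM in neutrophils or monocytes and 9.282 in T or NK cells. It was 3.236 in perivascular macrophages and 2.273 in B cells, against 5.329 in microglia, so it was not particular to microglia. Itgad, an integrin gene of myeloid cells, overlaps Cox6a2 on the opposite strand and had 15.96 CPM in microglia and at most 0.1712 in the other 7 types compared, and Gm44850, 9229 bases upstream on the same strand, had 5.222. Their part in the Cox6a2 counts was not tested. Cox6b2 was the other member called higher, by 1.15 ± 0.28 at 1.6 CPM.

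Among EC types the differences were small beside those between cell classes. Arterial EC had 0 members higher and 16 lower than capillary EC (all genes 18.7% and 19.6%), with medians of -0.09 and -0.04. Venous EC had 1 higher and 25 lower (all genes 15.9% and 18.6%), with medians of -0.12 and -0.04. The venous count of lower members was 15 without R182C-TgN3 6, 16 without WT-TgN3 1 and 2 with no mouse block. The arterial count was 9 with no mouse block and 32 to 39 with doublets kept, a mitochondrial limit of 20%, resolution 1 or clusters formed with all genes. Fenestrated EC, of vessels outside the barrier, had 3 higher and 47 lower (all genes 22.4% and 24.1%), with medians of -0.26 and -0.06, and 24 of 35 complex I members fell. Its lower count was 29 with no mouse block.

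Ndufa8 (chr2:36036326-36049406, minus strand), an accessory subunit of complex I in the space between the membranes, separated the EC types along the vessel tree. It had 74.89 to 109.4 CPM in arterial EC, 130.9 to 187.4 in capillary EC and 256.2 to 371.4 in venous EC across the same 11 mice, and these ranges did not overlap. The log2 differences from capillary EC were -0.92 ± 0.083 in arterial EC (adjusted p = 2.45e-19) and 0.82 ± 0.079 in venous EC (adjusted p = 5.874e-17). In fenestrated EC it was 0.24 ± 0.085, and -0.01 where cells were clustered at resolution 1.

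Cox7a1 differed by -0.85 ± 0.18 in arterial and -2.07 ± 0.33 in fenestrated EC, and Ndufa3 by -0.57 ± 0.072 in arterial EC. Ndufa7 differed by -0.52 ± 0.075 in venous and -1.02 ± 0.081 in fenestrated EC, where the upstream neighbour Kank3 had 262 and 169.5 CPM. Venous EC were also lower in Ndufb4, by 0.31 on the log2 scale, and Atp5md, a small subunit of ATP synthase dimers, by 0.29. Atp5e, the epsilon subunit, differed by -0.60 ± 0.085 in fenestrated EC, and Atp5b by 0.23 ± 0.072. Cox8b was called in fenestrated EC at 2.47 ± 0.58 on 12 UMIs, and this was 0.49 and not called without WT-TgN3 5, and 2.37 and not called in DESeq2. Of the general subunits, Sdha, Atp5a1 and Ndufs1 were not called in any of the 3 EC comparisons.

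Other genes of the pathway were counted from lists of the pathway. The 13 subunits encoded by mitochondrial DNA were all higher in SMC and in choroid plexus than in capillary EC, with medians of 1.27 and 1.54, and all lower in microglia, with -0.89. In fenestrated EC 12 of 13 were lower (all genes 24.1%) and in arterial EC 6 (all genes 19.6%). In venous EC 2 of 13 were higher, near the share of all genes (15.9%). In PC 5 of 13 were lower (all genes 26.2%) with a median of -0.19. Of 16 genes of the citric acid cycle and pyruvate entry, 16 were higher in choroid plexus and 15 in SMC with 1 lower. In microglia 12 were lower and 3 higher. Beside both lists, the shares of all genes were 31.9% higher in choroid plexus and 33% higher and 33% lower in SMC. In microglia they were 43.2% lower and 36.6% higher.

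The 46 assembly factors build the complexes but are not part of them. In choroid plexus 26 were higher and 3 lower (56.52% and 6.522%, against 31.9% and 32.9% of all genes) with a median of 0.55. In SMC 17 were higher and 13 lower with a median of 0.17, shares of 36.96% and 28.26% that lie near the 33% and 33% of all genes. In microglia 5 were higher and 29 lower (10.87% and 63.04%, against 36.6% and 43.2%) with a median of -0.44. Of 10 regulators of mitochondrial biogenesis, 4 were higher and 4 lower in choroid plexus, 5 and 3 in SMC, and 5 and 4 in microglia. The shares of all genes are those just given for each type. Cytosolic ribosomal protein genes are a set of short abundant transcripts. Their medians were -0.05 in choroid plexus, 0.26 in SMC, -0.60 in microglia and -0.96 in PC. In PC 81 of 90 were lower, against 26.2% of all genes. Dissociation stress genes, which rise during cell isolation, had medians of -0.87 in choroid plexus, 1.36 in SMC, 1.05 in microglia and -1.38 in PC. The part of isolation stress in the member levels was not tested.

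**Figure D4:**
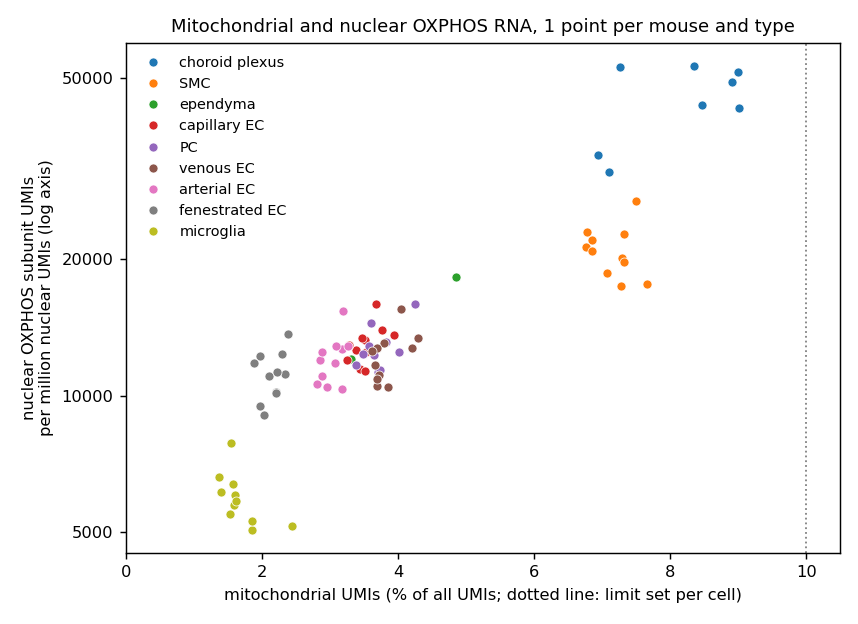
Summed level of the 82 nuclear genes (vertical log axis, CPM) against the share of mitochondrial UMIs (horizontal axis, %), with 1 point per mouse and cell type and a dotted line at the 10% limit set per cell. Microglia lie at the lower left and SMC and choroid plexus at the upper right, with SMC between 6.766% and 7.656% mitochondrial UMIs.

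Mitochondrial UMIs had medians of 8.404% in choroid plexus, 7.269% in SMC, 3.68% in PC, 3.511% in capillary EC, 3.721% in venous, 3.074% in arterial and 2.2% in fenestrated EC, and 1.586% in microglia. Over the means of 15 cell types, including blood cells, fibroblasts and macrophages, the member level and this share had a Spearman rho of 0.725. The same rho was -0.1929 with the share of ribosomal protein UMIs and 0.5214 with the median UMIs per cell. These are descriptions over types that share libraries. The genes outside the list whose level over the 15 types was most like the member sum were Tomm6, of the mitochondrial import pore, with a rho of 0.9571, Mrpl35, of the mitochondrial ribosome, with 0.9536, Calm3, a calmodulin gene, with 0.9464, and Cox14 and Coa6, assembly factors of complex IV, with 0.9429 and 0.9357, of 14222 genes considered.

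Genotypes were compared within each cell type, with 6 R182C-TgN3 and 5 WT-TgN3 mice, 4 WT-TgN3 mice for PC and 4 of each for choroid plexus. No member was called in any of the 8 types by edgeR, of 75 to 79 tested. Over all genes the share called was 0 (0%) in 7 types and 0.0112% in SMC, 1 gene of 8916. At an unadjusted p under 0.05 there were 0 or 1 members in each type (0% to 1.333%), against 1.034% to 3.32% of all genes. Over all settings run there were at most 18 in microglia, without R182C-TgN3 1, and 14 in SMC, without WT-TgN3 2, with 0 called by adjusted p in any, and DESeq2 also called 0. The shares of all genes at this unadjusted p in those settings are not given here, so these maxima cannot be set against them. The lowest adjusted p of a member was 0.9994, in microglia and choroid plexus.

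The summed level of members in SMC was 21711 ± 2936 for R182C-TgN3 against 19962 ± 2316 for WT-TgN3. The values were 20132, 22961, 22034, 19734, 18639 and 26769 in R182C-TgN3 1 to 6 and 17473, 22664, 17602, 21247 and 20823 in WT-TgN3 1 to 5, which overlapped. In microglia the level was 6207 ± 1014 for R182C-TgN3 against 5677 ± 374 for WT-TgN3, with 5068, 6374, 6620, 6030, 5281 and 7867 against 5495, 5152, 5743, 5853 and 6141. The lowest and the highest microglial values were both R182C-TgN3. In choroid plexus it was 43846 ± 9135 and 45785 ± 9233 (n = 4 each).

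**Figure D5:**
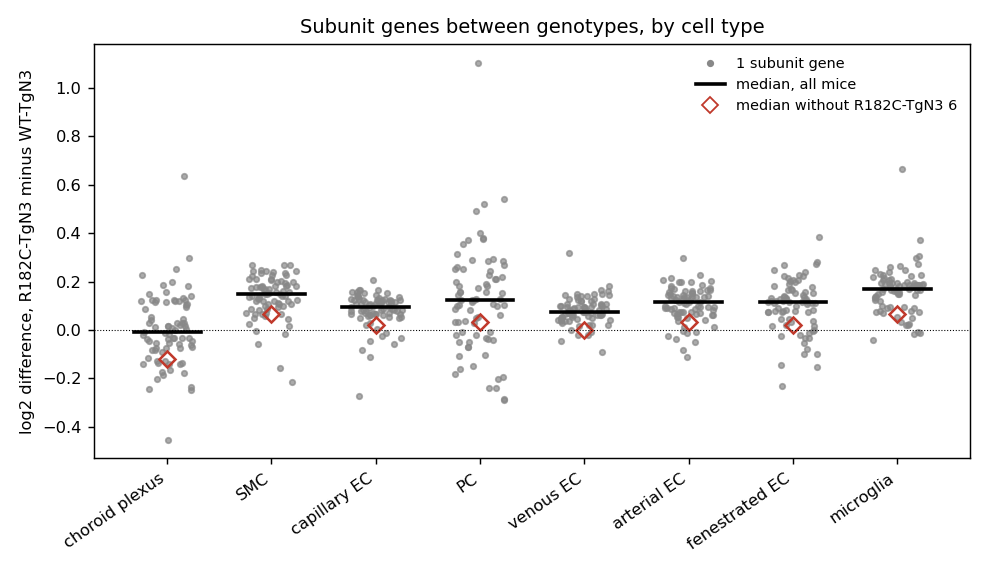
Log2 difference between genotypes (vertical axis, R182C-TgN3 minus WT-TgN3) of each member tested in 8 cell types, with the median over members as a black line and the median without R182C-TgN3 6 as a red diamond. The medians lie between -0.01 and 0.17 with all mice and between -0.12 and 0.07 without that mouse.

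Most member values lay slightly above 0 in R182C-TgN3 mice, with medians of 0.15 in SMC, 0.17 in microglia, 0.10 in capillary, 0.12 in arterial, 0.08 in venous and 0.12 in fenestrated EC, 0.12 in PC and -0.01 in choroid plexus. These values moved with single mice. Leaving out R182C-TgN3 6 moved them most in microglia, PC and the EC types, but not in SMC or choroid plexus. The level of R182C-TgN3 6 was highest in 7 of 8 types and averaged 1.242 times the median of the type. That library also had 1.305 times the median share of ribosomal protein UMIs and 1.421 times the median UMIs per cell. WT-TgN3 5 and 4 had 1.62 and 1.357 times the median UMIs per cell, with member levels of 1.042 and 1.049 times the median. WT-TgN3 1 and 3 had 0.6413 and 0.6745 times, with member levels of 0.8684 and 0.894. Without R182C-TgN3 6 the medians were 0.07 in SMC, 0.07 in microglia, 0.02 in capillary, 0.03 in arterial, 0.00 in venous and 0.02 in fenestrated EC, 0.03 in PC and -0.12 in choroid plexus. Without WT-TgN3 2 they were larger in SMC (0.23), capillary (0.16), arterial (0.18), venous (0.14) and fenestrated EC (0.20), without R182C-TgN3 5 in venous EC (0.13) and without WT-TgN3 4 in PC (0.19). The microglial median was larger without R182C-TgN3 1 (0.23), R182C-TgN3 5 (0.22) or WT-TgN3 5 (0.20). Medians were smaller without WT-TgN3 3 in capillary (0.045), arterial (0.067) and venous EC (0.026) and PC (0.063), without WT-TgN3 1 in venous (0.044) and fenestrated EC (0.053), and without R182C-TgN3 3 in fenestrated EC (0.072). In choroid plexus they ran from -0.13 without WT-TgN3 1 to 0.12 without R182C-TgN3 4. The part of depth in the level of these libraries was not tested. Standard errors of single members on the log2 scale were 0.078 to 0.29 in capillary EC, 0.10 to 0.28 in SMC, 0.097 to 0.34 in microglia and 0.19 to 0.57 in choroid plexus, so a difference of the size of these medians was not detectable gene by gene.

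The member with the smallest p was Sdhd, a membrane anchor of complex II, in PC, with a log2 difference of 1.10 ± 0.33 (edgeR, adjusted p = 0.9996). Next were Ndufc2 in arterial EC (0.30 ± 0.13), Uqcr11 in microglia (0.37 ± 0.17) and Ndufa9 in fenestrated EC (0.38 ± 0.18), with edgeR adjusted p-values of 0.9994 or above. In SMC they were Ndufb4 (0.24 ± 0.12) and Ndufa7 (0.27 ± 0.14). With batch as a covariate the medians were 0.13 in SMC, 0.14 in microglia and 0.07 in capillary EC and 0 members were called. Batches 1 and 3 held 2 mice of each genotype, batch 4 held R182C-TgN3 6 and WT-TgN3 3, and batch 2 held R182C-TgN3 3 alone and gives no comparison. The ratio of the R182C-TgN3 to the WT-TgN3 mean level was 1.024 in batch 1, 0.956 in batch 3 and 1.521 in batch 4 for SMC, 0.954, 1.062 and 1.37 for microglia, and 0.9974, 0.9241 and 1.4 for capillary EC. In all 3 types the ratio was highest in batch 4. In the 6-month mice alone the microglial median was 0.26 and in the 9-month mice alone 0.03, again with 0 members called, and the difference between the ages was not tested. Batches 1 and 2 held only 9-month mice, and batches 3 and 4 only 6-month mice, R182C-TgN3 6 among them. Age therefore cannot be told apart from batch here.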

How the data were processed

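Droplet single-cell libraries of the 11 mice had been aligned with Cell Ranger 7.0.0 to mm10 with the human NOTCH3 sequence added, and the authors deposited the filtered matrices as raw UMI counts per gene and barcode. A barcode needed 500 or more genes and no more than 10% of its UMIs from mitochondrial genes, barcode sequences found in more than 1 library were dropped, and predicted doublets were removed at 0.8% per 1000 barcodes. Cells were clustered with leidenalg 0.10.2 on 2000 variable genes without the members and mitochondrial genes, with 30 principal components, 15 neighbours and resolution 2, chosen after the clusters were seen (1 within EC), and named from listed markers. Names were rebuilt here and may differ from those of the study, and 7630 EC without a subtype and 4438 unnamed cells entered no comparison.

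Counts were summed per mouse and type with at least 10 cells. Cell types were compared in edgeR 4.0.16 (R 4.3.3, quasi-likelihood test, TMM factors, low counts filtered) over all genes with mouse as a block, and genotypes in 1 fit per type without covariates, leaving out ribosomal protein, mitochondrial and predicted genes as in the study. For its microglial analysis the study excluded 1 control sample, whereas all 5 WT-TgN3 mice entered the microglial fit here. P-values were Benjamini-Hochberg adjusted over all genes tested. DESeq2 1.42.0 and other scalings, filters, clusterings and left-out mice were alternatives. Standard errors were taken from the size of the log2 difference and its F statistic. Levels and shares are descriptions without a test.

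Named genes were the 3 largest called rises and falls of each comparison, the 2 smallest p-values where none was called, and fixed subunits and tissue forms. A few others were named after their values were seen, namely genes highest in 1 type and neighbouring genes. Some results that this rule names are not reported here. The members and lists were chosen with earlier results of these data known. On simulated data with 200 genes changed 2-fold, 99.5% were recovered with 10 false calls for SMC against capillary EC and 93.5% with 4 for genotype in capillary EC. Changes as small as the genotype medians of the members were not simulated, nor was genotype in the other cell types. Pairs with the same age and label number were checked for shared deviations within each type. Correlations were 0.1516 to 0.4318 over 5 pairs in microglia, all above 0.1, and fell below 0.1 in at least 1 pair in each other type. Pairs of libraries of the same genotype were compared by their counts, and none was a duplicate. Of all pairs, R182C-TgN3 4 and 5 shared the most barcode sequences, 350 (10.25% of the smaller library). Next by this percentage were R182C-TgN3 5 and WT-TgN3 3, with 278 (8.138%). Positions are from GENCODE vM21 on GRCm38.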

Additional observations from a re-analysis of the deposited data

Results flagged for a closer look

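A gap test within groups of 4 to 10 mice covered 34 groups of member levels or isoform shares. It marked 3 groups in which 1 mouse lay apart, all of isoform shares, and chance marks about 1 in 20. In choroid plexus, Cox8b made up 18.14% of Cox8a and Cox8b UMIs in R182C-TgN3 3, and 8.515% in the nearest of the 4 R182C-TgN3 mice. In PC, Cox4i2 made up 42.17% of Cox4i1 and Cox4i2 UMIs in R182C-TgN3 6, and 53.29% in the nearest of 6 mice. The PC of that mouse also had the highest share of endothelial marker RNA, 1.152%, whose part in this was not tested. In SMC, Cox4i2 made up 23.44% in WT-TgN3 1, and 15.28% in the nearest of 5 mice.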

How the results depend on the processing

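Of 228 counts of called members between cell types, 210 stayed within 1.5 times the main count. Members lower in PC, 32, were 17 with RLE factors, 18 by library size, 18 in DESeq2 and 21 with no replicate block. Members lower in arterial EC, 16, were 9 with no replicate block, 39 with clusters formed with all genes, 38 with a mitochondrial limit of 20%, 32 with doublets kept and 34 at resolution 1. Members lower in venous EC, 25, were 12 with no filter on low counts, 2 with no replicate block, 15 to 26 without single mice, 14 without R182C-TgN3 4 and WT-TgN3 1, 46 with clusters formed with all genes, 38 with the limit of 20% and 39 at resolution 1. Those lower in fenestrated EC, 47, were 29 with no replicate block. The cause of these shifts was not tested. Without the 10 most abundant genes of each type, as the smaller total implies, levels were 63742 in choroid plexus, 24716 in SMC, 15582 in capillary, 13996 in venous, 14144 in arterial and 12857 in fenestrated EC and 15099 in PC. Sdha in SMC against PC was -0.043 by library size. Ndufa8 in fenestrated EC was -0.014 at resolution 1. Cox7a2l in choroid plexus was 0.26 in DESeq2, 0.27 with RLE factors, 0.16 with a minimum of 20 cells, and ran from -0.24 to 0.0030 without single mice, above 0 without R182C-TgN3 1, 3 or 5. Cox8b by genotype in choroid plexus was -0.081 without R182C-TgN3 3 and ran up to 0.95 without the other single mice. All 196 genotype counts stayed at 0 called, and the replicate block changed no genotype call. The ependyma comparison could not be run with a minimum of 1000 genes or 20 cells, with clusters formed with all genes, or without R182C-TgN3 4 or WT-TgN3 4. Depth limits Cox8b, Cox6b2 and Cox6a2 outside the types named for them, and PC and ependyma most.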
